A study of Danio rerio with 6 samples.

Results

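The genes described here are the zebrafish genes of the major histocompatibility complex (MHC) and of antigen presentation. They were taken by name from the deposited gene table, as every gene whose name starts with mhc together with the partner genes *b2m*, *b2ml*, *cd74a*, *cd74b*, *tap1*, *tap2a*, *tap2t*, *tapbp.1*, *tapbp.2*, *ciita* and *nlrc5*. This gave 35 of the 32520 listed genes. The rule uses gene names alone, but it was set with earlier results of these data known. Messenger RNA was sequenced from heads of larvae at 10 dpf, in 3 pools of *fbln1* mutants homozygous for the ulg075 allele and 3 pools of AB WT. The ulg075 allele is a small deletion in the coding region made with CRISPR/Cas9, and it is a single mutant line. The sample descriptions name AB for the WT pools and no strain for the mutant pools, while the design text calls the WT fish siblings. Whether both groups share a background is therefore not settled. The growth protocol names the transgenic line ulg071 for the fish. Larvae came from crosses of heterozygous parents, and each pool held 21 heads that were cut off and sorted by genotype, or about 20 by the design text. The sample labels and the extraction protocol name heads, while other passages of the study's text name whole larvae for this comparison, a conflict that bears on every value of gut and blood cell genes. The design text sets each mutant batch against its WT siblings, without saying that pools with the same number share a batch.

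MHC class I molecules carry peptides from inside the cell to its surface, where T cells read them. Their heavy chain pairs with beta-2 microglobulin and is filled in the endoplasmic reticulum, after the proteasome has cut the peptides and the TAP transporter has pumped them in. MHC class II molecules, an alpha and a beta chain held by the invariant chain Cd74 until they reach endosomes, present peptides from taken-up material and are known mainly from dendritic cells, macrophages and B cells. The class I genes among the members fall into the lineages U, Z and L, given by the letter after mhc1. In zebrafish the U genes next to the peptide-loading genes form the core MHC, which is known to differ between individual fish and laboratory strains.

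The deposited values, called normalized counts, are read counts per gene after division by a size factor of each library. Between 15174207 and 18721515 reads were counted on genes per pool, and 3 reads correspond to 2.60 to 3.20 normalized counts. A gene counted as seen in a pool at 4 or more reads, a limit that allows for counting error alone. The test was limma on log2(normalized count + 1), over the genes that reached 10 normalized counts in 3 or more pools. Genes were called at a Benjamini-Hochberg adjusted p under 0.05 with an absolute log2 fold change above 0.5. *fbln1* itself had 93.2, 53.1 and 39.9 normalized counts in mutant pools 1, 2 and 3, against 77.4, 136 and 70.4 in WT pools 1, 2 and 3, with a log2 fold change of -0.63 ± 0.33 (SE, limma adjusted p = 0.162). Mutant pool 1 stood above WT pools 1 and 3, and since reads beside a small deletion are still counted, this level does not check the genotype.

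Of the 35 genes, 16 passed the filter on low counts and 19 did not. Among the 16 tested genes, 7 were called higher in the mutant heads, which is 43.8%, beside 15.4% of all 20691 tested genes called higher. The 7 genes were *mhc1zba*, *mhc1zea* and *mhc1zja* of the class I Z lineage, both invariant chain genes *cd74a* and *cd74b*, the transporter subunit *tap1* and the tapasin gene *tapbp.2*. The genes *mhc1zja* and *cd74b* passed the filter only through their mutant pools, and without them 5 of 14 tested genes (35.7%) were called higher. limma called 0 of the 16 lower, beside 2.68% of all tested genes. One member, *mhc1zda*, was lower at an unadjusted p under 0.05, and edgeR, DESeq2 and limma-voom on the recovered reads likewise called 0 lower, while they called 7, 6 and 7 higher.

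By the pools themselves, every mutant pool stood above every WT pool for 8 of the 16 tested genes, beside 24.5% of all tested genes. Every mutant pool stood below every WT pool for 1 of the 16, beside 24.3% of all tested genes, and the pools overlapped for the other 7. The median log2 fold change of the 16 genes was 0.67, against -0.03 for all tested genes, and it was 0.43 without *mhc1zja* and *cd74b*. It was 0.48 without WT pool 1. The sources call the pools independent batches without saying whether they came from separate crosses, so the p-values measure the spread between 3 pools per group, which may be technical. In bulk heads, more cells of a type and more RNA per cell cannot be told apart.

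**Figure D1:**
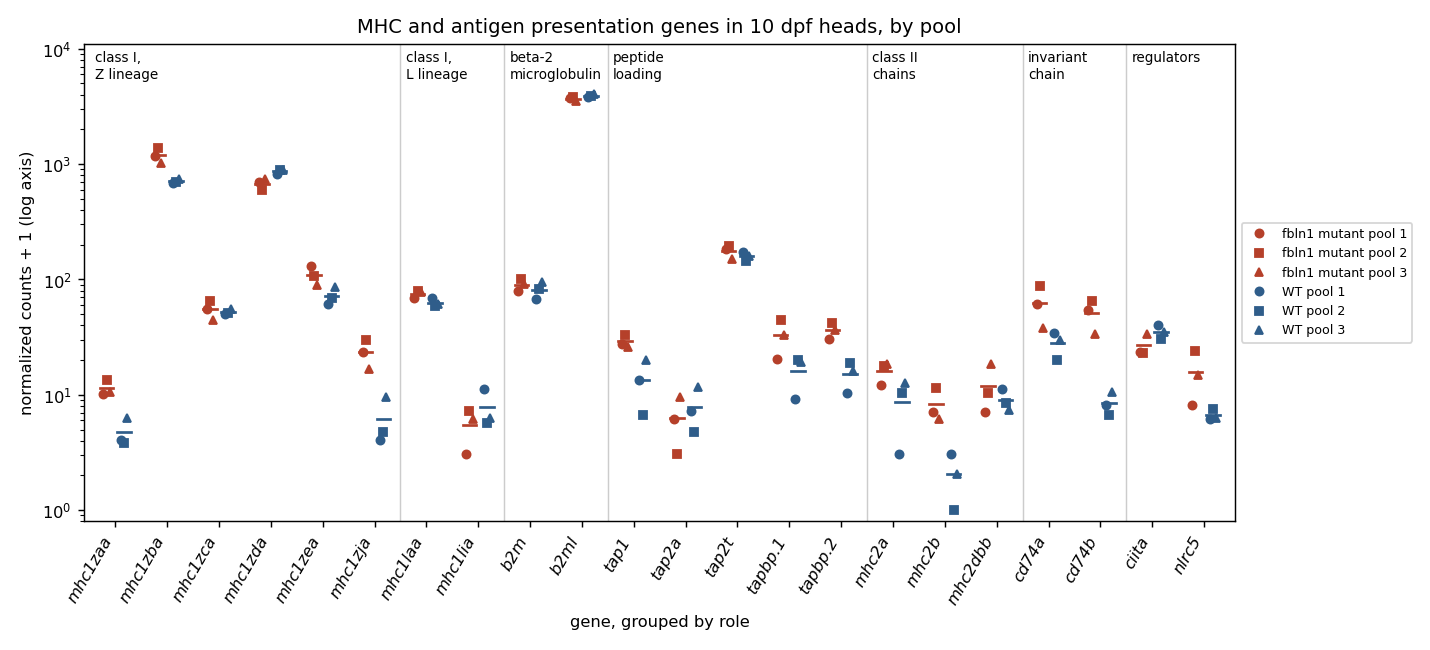
Normalized counts plus 1 (log axis) of the 22 members that reached 10 normalized counts in a pool, by gene and grouped by role. Points are single pools, *fbln1* mutant in red left of WT in blue, and bars are group means. For *cd74b*, 3 mutant pools at 32.9 to 64.6 stand above 3 WT pools at 5.65 to 9.60, whereas the pools of *b2ml* lie on one level.

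Among the class I heavy chains, 3 of 5 tested Z genes were called higher in mutant heads, or 2 of 4 without *mhc1zja*, which passed the filter only through its mutant pools, beside 15.4% of all tested genes. These genes code for membrane heavy chains of a lineage found in many fish, and as members of one multigene family they may share reads, so the split of counts between them is uncertain. *mhc1zba* had 1175, 1379 and 1028 normalized counts in mutant pools 1, 2 and 3, against 682, 697 and 746 in WT pools 1, 2 and 3. All mutant pools stood well above all WT pools, and the mean was 1.69-fold that of WT (log2 fold change 0.74 ± 0.10, SE, limma adjusted p = 0.000507). It was called higher in every alternative tried.

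*mhc1zda* behaved in the opposite way, with 699.9, 592 and 739 normalized counts in the mutant pools and 813, 896 and 894 in the WT pools. The highest mutant pool stayed under the lowest WT pool, the log2 fold change was -0.36 ± 0.10 (SE) and the limma adjusted p was 0.0159, so the gene missed the call through the limit on fold change. The log2 ratio of *mhc1zba* to *mhc1zda* was 0.75, 1.22 and 0.48 in the mutant pools and -0.25, -0.36 and -0.26 in the WT pools. This difference of 1.11 gave p = 0.1 in a two-sided exact permutation test, the smallest p that 3 pools against 3 allow, and 0.133 after adjustment over the 8 ratios computed, which were chosen after the values were seen. The ratio was above 0 in all 3 mutant pools and below 0 in all 3 WT pools, and since it is not per length, its sign does not order the levels of the pair.

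*mhc1zea* had 131, 106 and 89.2 normalized counts in mutant pools 1, 2 and 3, against 60.9, 67.9 and 84.3 in the WT pools. The lowest mutant pool and the highest WT pool lay close together, and the gene was called higher with a log2 fold change of 0.60 ± 0.20 (SE, limma adjusted p = 0.0388). This call was lost without mutant pool 1 (limma adjusted p = 0.149), mutant pool 2 (0.0886), WT pool 1 (0.128) or WT pool 2 (0.0862), and with the replicate number as a block (0.0513).

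The third called Z gene, *mhc1zja*, was at low counts, with 22.5, 29.2 and 15.6 in the mutant pools against 3.10, 3.77 and 8.54 in the WT pools. Its lowest mutant pool was above its highest WT pool, and the log2 fold change was 1.99 ± 0.48 (SE, limma adjusted p = 0.0101). Without mutant pool 2 the adjusted p was 0.050 and the call was lost. *mhc1zca* showed no such separation, with 54.3, 64.6 and 43.3 normalized counts in the mutant pools and 49.6, 49.95 and 54.4 in the WT pools, and a log2 fold change of 0.06 ± 0.22 (SE, limma adjusted p = 0.864).

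Below the filter, *mhc1zaa* had 9, 12 and 11 reads in mutant pools 1, 2 and 3 and 3, 3 and 5 reads in WT pools 1, 2 and 3. It was seen in all 3 mutant pools and in WT pool 3 alone among the WT pools. *mhc1zfa* had 7, 3 and 4 reads in the mutant pools and 2, 2 and 1 in the WT pools, so it was seen in mutant pools 1 and 3. *mhc1zka* had 2 reads in mutant pool 2 and 0 in the others, too few to count as seen anywhere. Summed over the 8 Z genes, the heads had 2099.6, 2189 and 1928 normalized counts in mutant pools and 1614, 1720 and 1793.5 in WT pools, with no overlap.

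The L lineage, class I heavy chains of the ray-finned fish that are placed outside the core MHC, had 1 tested gene among 8. *mhc1laa* stood at 67.6, 79.2 and 76.2 normalized counts in the mutant pools and 68.1, 57.5 and 59.8 in the WT pools. Mutant pool 1 fell just below WT pool 1, and the log2 fold change of 0.26 ± 0.18 (SE) did not pass the test (limma adjusted p = 0.29). *mhc1lia* had 2, 6 and 6 reads in the mutant pools and 10, 5 and 5 in the WT pools, and *mhc1lga* had 7, 5 and 2 reads against 3, 8 and 1. Both pairs of groups overlapped. *mhc1lda* and *mhc1lja* had 2 reads each in WT pool 1 and none elsewhere, and *mhc1lba*, *mhc1lfa* and *mhc1lla* had 0 reads in every pool.

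A mutant line carries its own stretch of chromosome around the edited gene, so the position of the members was read. In the GRCz12tu annotation, which is not the build of the files, 31 of the 35 members were matched by name and 6 of them lie on the chromosome of *fbln1*. All 6 are L genes (*mhc1lda*, *mhc1lfa*, *mhc1lga*, *mhc1lia*, *mhc1lja* and *mhc1lla*), with 182 to 189 protein-coding genes between them and *fbln1*, and none passed the filter. No matched gene among the 7 called higher was on that chromosome, and *mhc1zja* was not matched. Positions were read for the members only, not for MHC genes listed under other names. The part of linked sequence in the change of any gene was not tested.

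The U lineage, which holds the classical class I chains of zebrafish, was nearly without reads. *mhc1uba* and *mhc1uma* had 0 reads in all 6 pools. *mhc1uka* had 5, 0 and 1 reads in mutant pools 1, 2 and 3 and 0, 2 and 1 in WT pools 1, 2 and 3, so it was seen in mutant pool 1 alone. The files count reads on the genes of 1 reference assembly, so a core MHC haplotype that this assembly lacks would give no reads here, and whether these fish carried one was not tested.

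**Figure D2:**
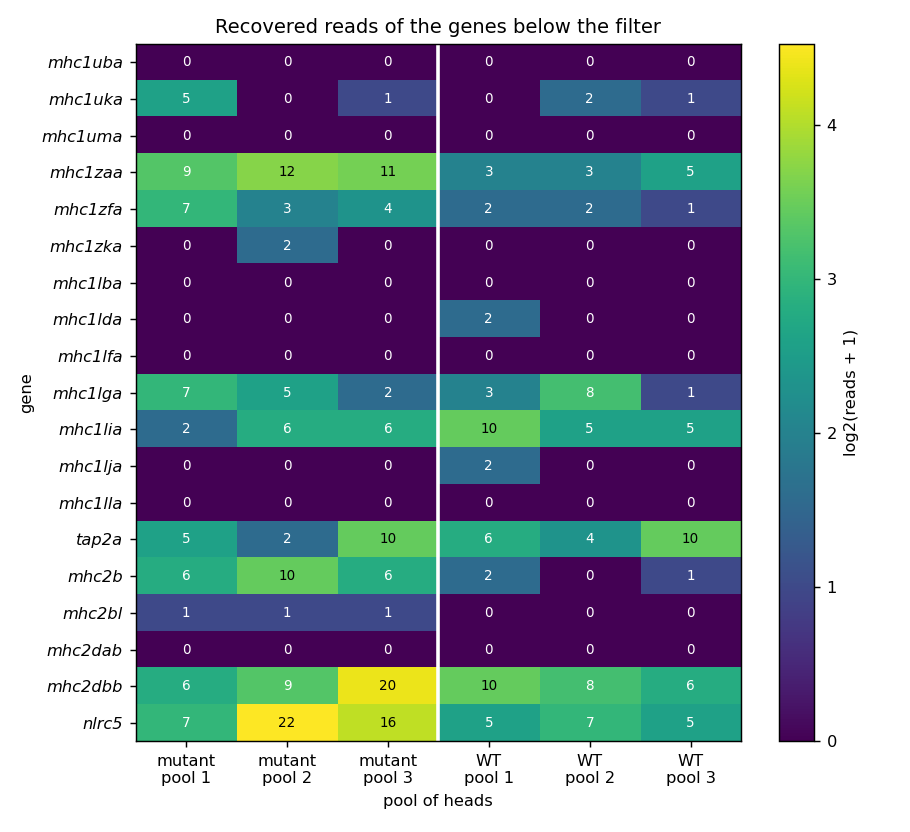
Recovered reads of the 19 members below the filter (rows) in mutant pools 1 to 3 and WT pools 1 to 3 (columns), with the colour giving log2(reads + 1). *mhc2b* and *mhc1zaa* have more reads in each mutant pool than in any WT pool, *mhc1lia* and *tap2a* overlap between groups, and 6 genes have 0 reads throughout.

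Beta-2 microglobulin, the light chain of every class I molecule, showed no called difference. *b2ml*, the *b2m*-like gene, had 3753, 3849 and 3503 normalized counts in the mutant pools and 3818, 3866 and 4082 in the WT pools. The pools overlapped and the log2 fold change was -0.08 ± 0.07 (SE, limma adjusted p = 0.385). *b2m* had 77.9, 100.0 and 90.1 normalized counts in the mutant pools and 67.1, 81.0 and 93.9 in the WT pools, likewise overlapping (log2 fold change 0.15 ± 0.19, SE, limma adjusted p = 0.568). Relative to *b2ml*, *mhc1zba* was higher in each mutant pool, with log2 ratios of -1.68, -1.48 and -1.77 against -2.48, -2.47 and -2.45 in the WT pools (difference 0.83, exact permutation p = 0.1, adjusted 0.133).

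The peptide-loading genes divided into the tapasin genes and *tap1*, whose mutant pools all stood above the WT pools, and the *tap2* genes, which overlapped. Tapasin holds the empty class I molecule at the transporter. *tapbp.2* had 29.7, 40.6 and 35.5 normalized counts in mutant pools 1, 2 and 3, against 9.29, 17.9 and 14.9 in the WT pools. The groups were apart, the mean was 2.51-fold that of WT and the gene was called higher (log2 fold change 1.30 ± 0.34, SE, limma adjusted p = 0.0136), a call lost only without mutant pool 2 (0.0578). *tapbp.1*, the other tapasin gene, had 19.5, 43.8 and 32.1 normalized counts in the mutant pools and 8.26, 18.9 and 18.1 in the WT pools. Mutant pool 1 was only just above WT pool 2, and the log2 fold change of 1.04 ± 0.42 (SE) missed the threshold (limma adjusted p = 0.0767). The gene was called without mutant pool 1 (0.048) and with the replicate number as a block (0.0355).

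*tap1*, 1 of the 2 kinds of subunit of the peptide transporter, had 26.6, 32.3 and 25.1 normalized counts in the mutant pools, against 12.4, 5.65 and 19.2 in the WT pools. No WT pool reached the lowest mutant pool, and the mean was 2.26-fold that of WT (log2 fold change 1.25 ± 0.43, SE, limma adjusted p = 0.0442). The call is marginal, since DESeq2 gave an adjusted p of 0.0599 and limma an adjusted p of 0.0921, 0.134, 0.0657, 0.0842 and 0.12 without mutant pools 1, 2 or 3 or WT pools 1 or 2. *tap2t*, a further *tap2* gene, had 183, 195 and 149 normalized counts in the mutant pools and 173, 142 and 160.0 in the WT pools (log2 fold change 0.14 ± 0.15, SE, limma adjusted p = 0.478). *tap2a*, the partner subunit in the core MHC, had 5, 2 and 10 reads in the mutant pools and 6, 4 and 10 in the WT pools, and was seen in every pool but mutant pool 2.

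The class II chains had few reads, and their largest sums were in mutant heads. *mhc2a*, an alpha chain gene whose newer symbol is *mhc2daa*, had 11.3, 16.7 and 17.3 normalized counts in the mutant pools and 2.06, 9.42 and 11.7 in the WT pools. Mutant pool 1 fell below WT pool 3, and the log2 fold change of 1.096 ± 0.57 (SE) did not pass the test (limma adjusted p = 0.163); without WT pool 1 it was 0.46. *mhc2b*, a beta chain gene now named *mhc2dgb*, had 6, 10 and 6 reads in the mutant pools and 2, 0 and 1 in the WT pools, so it was seen in all mutant pools and in no WT pool. It was below the filter, and without any filter limma called it higher. *mhc2dbb*, also a beta chain gene, had 6, 9 and 20 reads in the mutant pools and 10, 8 and 6 in the WT pools, which overlap. *mhc2bl* had 1 read in each mutant pool and 0 in the WT pools, and *mhc2dab* had 0 reads in every pool. Over the 5 class II genes the reads summed to 24, 36 and 47 in mutant pools and 14, 18 and 18 in WT pools, with every mutant sum above every WT sum.

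Both invariant chain genes were called higher, and *cd74b* passed the filter only through its mutant pools. *cd74b* had 53.3, 64.6 and 32.9 normalized counts in mutant pools 1, 2 and 3, against 7.23, 5.65 and 9.60 in WT pools 1, 2 and 3. The lowest mutant pool was far above the highest WT pool, and the mean was 6.71-fold that of WT (log2 fold change 2.57 ± 0.37, SE, limma adjusted p = 0.000561). The call held in every alternative, with limma, edgeR and DESeq2 adjusted p from 2.8e-07 to 0.00561.

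*cd74a* had 60.5, 87.5 and 37.3 normalized counts in the mutant pools and 33.0, 18.9 and 28.8 in the WT pools. Mutant pool 3 lay close to WT pool 1, while the mean was 2.29-fold that of WT (log2 fold change 1.12 ± 0.34, SE, limma adjusted p = 0.0267). The call was lost without mutant pool 1 (limma adjusted p = 0.0692), mutant pool 2 (0.117), WT pool 2 (0.0796) or WT pool 3 (0.0556). The log2 ratio of *cd74b* to *cd74a* was -0.18, -0.44 and -0.18 in the mutant pools and -2.19, -1.74 and -1.58 in the WT pools. The ratio was higher in every mutant pool (difference 1.57, exact permutation p = 0.1, the smallest possible here, adjusted 0.133). It was chosen after the values were seen, and *cd74b* passed the filter only through its mutant pools. The ratio is therefore a description and lends no support to the calls.

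Of the 2 regulators, *ciita* codes for the activator of class II genes and *nlrc5* for a protein of the same family that activates class I genes in mammals. *ciita* had 22.5, 21.9 and 32.9 normalized counts in the mutant pools and 39.2, 29.2 and 34.1 in the WT pools. Mutant pools 1 and 2 were below all WT pools and mutant pool 3 was among them, and the log2 fold change of -0.41 ± 0.28 (SE) did not pass the test (limma adjusted p = 0.29). *nlrc5*, below the filter, had 7, 22 and 16 reads in the mutant pools and 5, 7 and 5 in the WT pools, and was seen in all of them. Mutant pool 1 (7.17 normalized counts) was just above WT pool 2 (6.60), and mutant pools 2 and 3 were far above.

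**Figure D3:**
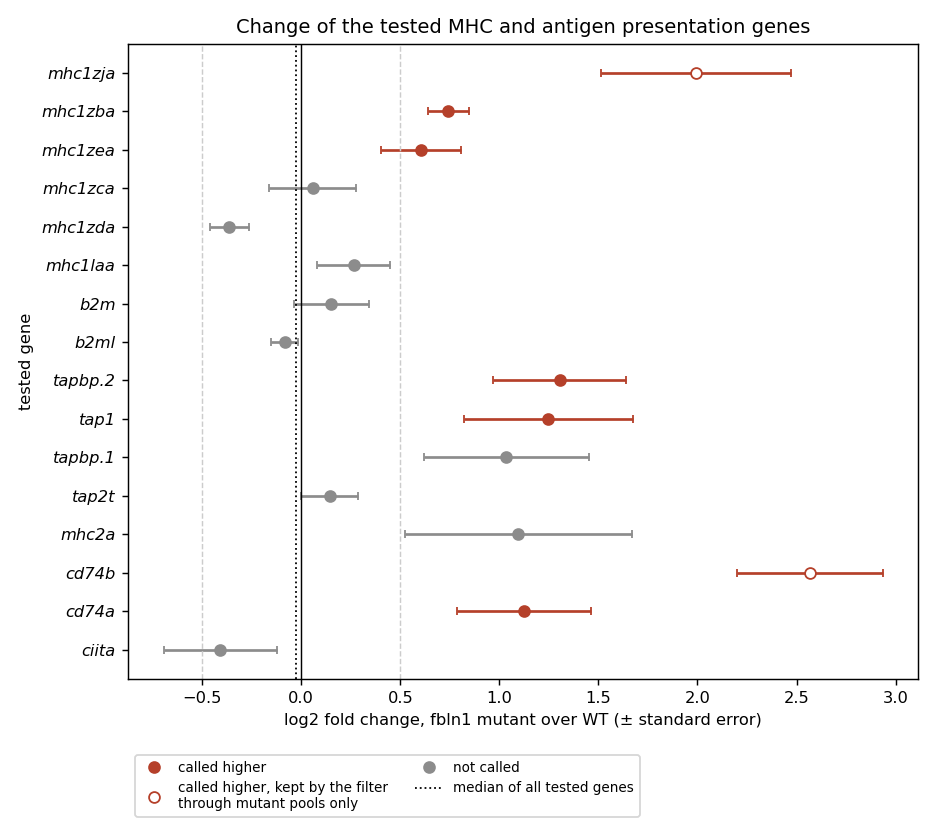
Log2 fold change, *fbln1* mutant over WT, of the 16 tested members (rows, by role), with bars for the standard error. Red points were called higher, open red points passed the filter through mutant pools only, and grey points were not called. Values run from -0.41 for *ciita* to 2.57 for *cd74b*, and the dotted line marks the median of all tested genes at -0.03.

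Counting by pools, 16 members were seen in all 6 pools, 9 in some pools only and 10 in none. Of the 10 seen in none, 6 had 0 reads everywhere. The 9 seen in some pools were *mhc1zaa*, *mhc1zfa*, *mhc1zja*, *mhc1lga*, *mhc1lia*, *mhc1uka*, *mhc2a*, *mhc2b* and *tap2a*. Of these, 4 (*mhc1zaa*, *mhc1zja*, *mhc2a* and *mhc2b*) were seen in all 3 mutant pools but not in all WT pools, and 2 (*mhc1lia* and *tap2a*) in all 3 WT pools but not in all mutant pools. *mhc1uka*, *mhc1zfa* and *mhc2b* were seen in mutant pools only, and no member in WT pools only. The shares of all listed genes seen in these ways were not computed, so these counts have no background and do not set the members apart. With a limit of 1 read 6 members, and with a limit of 10 reads 12 members, were seen in some pools only. At these depths a gene with fewer than 4 reads is not shown to be absent.

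Genes that prepare peptides for class I were described next to the members, from lists of antigen processing genes. Of 10 genes of the immunoproteasome and its activator in the table, 6 were tested and 5 were called higher (15.4% over all tested genes), with a median log2 fold change of 1.60 over the 6. Without *psmb9a*, which passed the filter only through its mutant pools, 4 of 5 were called higher and the median was 1.39. *psme1*, which codes for an activator subunit of the proteasome, had 179, 201.1 and 135 normalized counts in the mutant pools and 42.3, 56.5 and 44.8 in the WT pools (log2 fold change 1.81 ± 0.20, SE, limma adjusted p = 0.000105). *psme2*, its partner subunit, had 159.8, 136 and 126 against 54.7, 55.6 and 48.0 (1.39 ± 0.17, SE, limma adjusted p = 0.000225). Both genes had mutant pools far above all WT pools.

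*psmb9a*, a catalytic subunit of the immunoproteasome, had 22.5, 11.5 and 22.5 normalized counts in the mutant pools and 4.13, 3.77 and 5.33 in the WT pools (log2 fold change 1.83 ± 0.46, SE, limma adjusted p = 0.0127, and 0.0585 without mutant pool 1). *psmb8a*, another catalytic subunit, had 23.6, 17.7 and 19.1 against 3.10, 11.3 and 3.20 (1.81 ± 0.51, SE, limma adjusted p = 0.0206). Its call was lost without mutant pool 1 (0.0725), mutant pool 2 (0.0513), WT pool 1 (0.0671) or WT pool 3 (0.064). The tested gene of this list that was not called was *psmb10*, also a catalytic subunit. It had 67.6, 62.5 and 71.9 against 69.2, 44.3 and 45.9, with overlapping pools (0.36 ± 0.22, SE, limma adjusted p = 0.232). The fifth called gene, *psme3*, which codes for the nuclear form of the activator, had a log2 fold change of 0.53 ± 0.13 (SE, limma adjusted p = 0.00976) and went under the limit of 0.5 without mutant pool 1 (0.50), mutant pool 2 (0.45) or WT pool 1 (0.42). *psmb12* and *psmb13a*, below the filter, were at 6.93 to 14.3 and 5.20 to 11.5 normalized counts in the mutant pools, against 2.83 to 4.27 and 0 to 2.83 in the WT pools.

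In the GRCz12tu annotation, *psmb8a*, *psmb9a*, *psmb12*, *psmb13a*, *tapbp.2*, *tap2a*, *mhc1uba* and *mhc1uka* all lie near *tapbp.1*, with 0 to 7 protein-coding genes between each and it. The position of *mhc1uka* was read by that name, while the newer symbol of the counted gene is *mhc1uca*, so its place is uncertain. Along this stretch *psmb8a*, *tapbp.1* and *tapbp.2* had every mutant pool above every WT pool, beside 24.5% of all tested genes. The same order of pools held for *psmb9a*, which passed the filter only through its mutant pools. It also held for *psmb12* and *psmb13a*, which were not tested, so that share is no background for these genes. *tap2a* overlapped and the class I chains had 5 reads or fewer in each pool. Reads of this stretch too were counted on 1 reference assembly. Differences in expression and in haplotype between the groups cannot be told apart here. Of these genes, *psmb8a*, *psmb9a* and *tapbp.2* were called, and the differences of the other genes of the stretch did not pass or were not tested.

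Of 11 genes for class I peptide trimming and folding in the endoplasmic reticulum, all tested, 5 were called higher. This stands beside 15.4% of all tested genes, and the list median was 0.30. *calr3a* and *calr3b*, which code for calreticulin-like chaperones, had log2 fold changes of 1.84 ± 0.19 and 1.45 ± 0.16 (SE, limma adjusted p = 6.07e-05 and 0.000102). *pdia3*, the disulfide isomerase of the loading complex, had 2249, 2564 and 1866 normalized counts in the mutant pools and 1084, 1255 and 1042 in the WT pools (0.97 ± 0.11, SE, limma adjusted p = 0.000169). *tapbpl*, a tapasin-related editor of bound peptides in mammals, had 36.9, 32.3 and 36.4 against 14.4, 16.0 and 19.2 (1.05 ± 0.28, SE, limma adjusted p = 0.0169, and 0.0588 and 0.0527 without mutant pool 1 or WT pool 1). *calr* passed narrowly at 0.52 ± 0.12 (SE, limma adjusted p = 0.00977) and went under the limit of 0.5 without mutant pool 2 (0.43), WT pool 1 (0.45) or WT pool 3 (0.47). These chaperones serve the folding of many secreted and membrane proteins besides class I.

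In the lists around class II and interferon, few genes were called, and their shares are to be read beside the 15.4% of all tested genes called higher. Of 12 tested genes for class II processing in endosomes, 3 were called higher and 1 lower, and the median was -0.02. The higher genes were *ifi30*, a thiol reductase of endosomes (log2 fold change 1.41 ± 0.19, SE, limma adjusted p = 0.000372), and the proteases *ctsl.1* (0.86 ± 0.15, SE, limma adjusted p = 0.00207) and *ctsh* (0.78 ± 0.18, SE, limma adjusted p = 0.00889, and 0.0502 with no variance trend). The lower gene was *march1*, a ubiquitin ligase that takes class II off the cell surface in mammals (-0.60 ± 0.12, SE, limma adjusted p = 0.00508), which missed the limit on fold change without mutant pool 2 (-0.47).

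Of 10 class II promoter factors, all tested, 1 was called higher, namely *rfxank*, a subunit of the factor that binds the X box of these promoters. *rfxank* had 34.8, 27.1 and 17.3 normalized counts in the mutant pools and 11.4, 7.54 and 4.27 in the WT pools (log2 fold change 1.68 ± 0.45, SE, limma adjusted p = 0.0154, and 0.0687 and 0.0543 without mutant pools 1 or 2), while the list median was -0.12. Of 12 tested genes of interferon gamma signalling, 1 was called higher and the median was 0.06. This was *irf1a*, an interferon regulatory factor, at 51.2, 39.6 and 16.5 normalized counts in mutant pools and 16.5, 6.60 and 8.54 in WT pools (1.62 ± 0.48, SE, limma adjusted p = 0.0246). Its call was lost without mutant pools 1 (0.102) or 2 (0.0888) or WT pools 2 (0.0682) or 3 (0.0705). The ligand genes *ifng1* and *ifng1r* had 0 reads in every pool.

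Of 20 interferon-stimulated genes in the table, 8 were tested and 1 was called higher, with a list median of 0.26. *mxc*, an antiviral GTPase gene that passed the filter only through its mutant pools, had 12.3, 11.5 and 12.1 normalized counts in the mutant pools and 1.03, 5.65 and 4.27 in the WT pools (log2 fold change 1.64 ± 0.58, SE, limma adjusted p = 0.0483). The call was lost with DESeq2 (adjusted p = 0.0914) and with limma without any mutant pool (0.0994 to 0.12) or without WT pools 1 (0.127) or 3 (0.0691), and with the replicate number as a block (0.0543). Over the 6 lists, *march1* was the 1 gene that limma, edgeR, DESeq2 and limma-voom called lower.

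**Figure D4:**
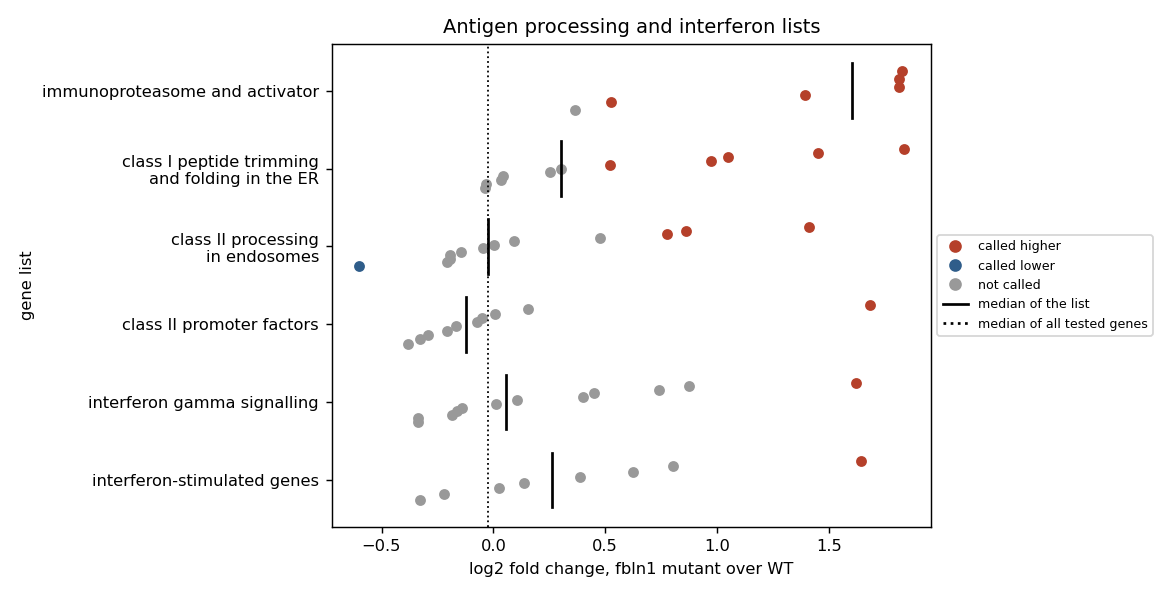
Log2 fold change, *fbln1* mutant over WT, of every tested gene in the 6 lists of antigen processing and interferon genes. Points are genes, red where called higher, blue where called lower and grey where not called, and black bars are list medians, from 1.60 for the immunoproteasome and activator to -0.12 for the class II promoter factors. The dotted line is the median of all tested genes.

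Some markers of white blood cells were higher in mutant heads. The shares called are to be read beside the 15.4% of all tested genes called higher. The 7 pan-leukocyte markers summed to between 1086 and 1517 normalized counts in the mutant pools and between 570.2 and 728 in the WT pools, and 3 of the 7 were called higher, namely *coro1a* (log2 fold change 1.27), *lcp1* (1.095) and *rac2* (1.28). *ptprc*, the common leukocyte antigen, had a log2 fold change of 0.61 ± 0.27 (SE, limma adjusted p = 0.106). Of 10 tested macrophage and dendritic cell markers, 1 was called higher, *mpeg1.1* (0.86), which was not called without mutant pools 1 or 2 or WT pools 1 or 3. *mpeg1.2* (0.05), *marco* (-0.07) and *csf1ra* (-0.05) differed little. Without *apoeb*, which held most of the reads of that list, it summed to between 545 and 837 in the mutant pools and between 531 and 624 in the WT pools, which overlap.

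Lymphocyte and neutrophil markers were mixed, and their called genes too stand beside the 15.4% of all tested genes called higher. For B cells, *cd79a* had at most 3 reads in any pool and *cd79b* at most 2, and the 8 markers summed to between 78.1 and 99.4 normalized counts in mutant pools and between 65.0 and 85.4 in WT pools. Of 3 tested T cell markers, 1 was called higher, *rag1*, a recombinase gene of maturing lymphocytes (1.79). Neither *rag2* (0.44) nor *il2rb* (-0.08) was called. *cd8a* and *cd8b* had at most 1 read in any pool. Below the filter, *lck* had 15.4, 12.5 and 7.80 normalized counts in the mutant pools against 4.13, 0 and 1.07 in the WT pools. Every mutant pool of *lck* stood above every WT pool, as did those of *cd247l*, by a narrow margin, and of *cd4-1*, at 4 reads or fewer. The pools of *zap70*, *themis*, *cd8a* and *cd8b* overlapped. None of these genes below the filter was tested. The 10 markers summed to between 138 and 194 in mutant pools against between 58.7 and 84.7 in WT pools. Of these sums, *rag1* alone held 104.5, 74.0 and 49.4 normalized counts in the mutant pools and 17.55, 24.5 and 19.2 in the WT pools. The neutrophil genes *mpx* (0.13) and *lyz* (0.20) were not called. *cpa5*, which held most of the reads of the neutrophil list and was called higher (1.18), is a carboxypeptidase gene with the newer symbol *CPA1*. It is not particular to neutrophils. Without *cpa5*, the neutrophil list summed to between 1321 and 1743 in mutant pools and between 1379 and 1708 in WT pools.

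Set against the summed pan-leukocyte markers, the members did not move alike. This sum is held mainly by *coro1a*, *lcp1* and *rac2*, the markers that were themselves called higher. Their mutant means were 283 to 331 normalized counts, against at most 105 for any other marker of the sum. The ratios therefore depend on this choice of markers, and ratios to macrophage or B cell markers were not computed. *cd74b* passed the filter only through its mutant pools. The log2 ratio of *cd74b* to that sum was -4.51, -4.55 and -5.04 in the mutant pools and -6.34, -6.66 and -6.24 in the WT pools, a difference of 1.71 with no overlap (exact permutation p = 0.1, adjusted 0.133). For *cd74a* the log2 ratio was -4.33, -4.12 and -4.86 against -4.15, -4.92 and -4.66, a difference of 0.14 with overlapping pools (exact permutation p = 0.7, adjusted 0.8). For *mhc1zba* it was -0.05, -0.14 and -0.08 against 0.22, 0.29 and 0.04, so relative to these markers *mhc1zba* was lower in each mutant pool (difference -0.27, exact permutation p = 0.1, adjusted 0.133). The part of leukocyte number in the change of any member was not tested beyond these ratios.

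**Figure D5:**
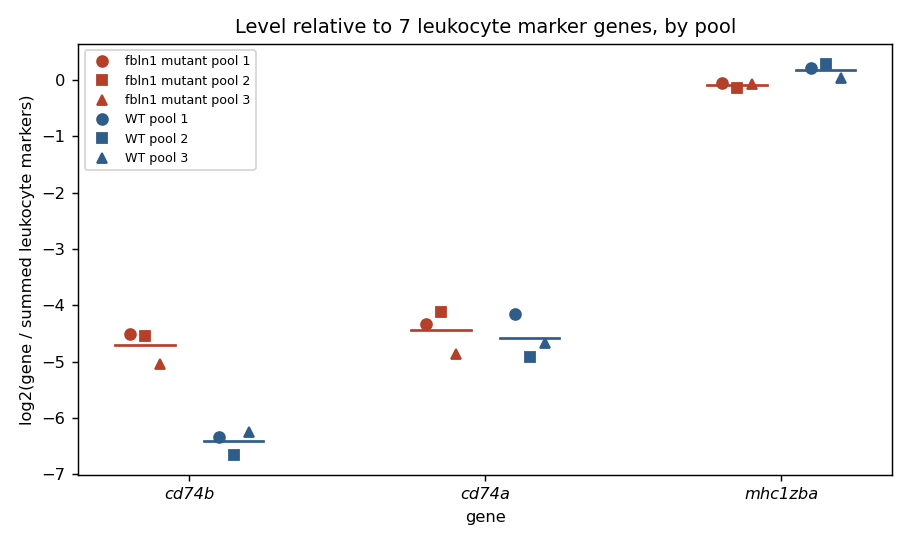
Log2 ratio of *cd74b*, *cd74a* and *mhc1zba* to the summed normalized counts of 7 leukocyte marker genes, by pool, with *fbln1* mutant pools in red left of WT pools in blue and bars for group means. The groups are apart for *cd74b* (difference 1.71) and overlap for *cd74a* (difference 0.14), and *mhc1zba* lies slightly lower in the mutant pools (difference -0.27).

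Intestinal genes stood apart between the groups as well. The 13 intestine markers summed to between 95207 and 133675 normalized counts in the mutant pools and between 28492 and 34677 in the WT pools, and 12 of the 13 were called higher. Without the markers that passed the filter only through mutant pools, 10 of 11 were called higher. Both counts stand beside 15.4% of all tested genes. The largest parts of the sum in every pool were *apoa1b* and then *apoa1a*. *apoa1b* had 43444, 55999 and 47295 normalized counts in the mutant pools and 22971, 22766 and 18854 in the WT pools. Trunk and tail hox genes, none of which passed the filter, summed to between 42.5 and 84.4 against between 18.8 and 41.6. The 11 brain and eye markers summed to between 103783 and 124864 normalized counts in mutant pools and between 108869 and 137817 in WT pools. Whole larvae hold brain and eye as well, so these markers cannot tell heads from whole larvae. Among mutant pools, 12 of the 13 intestine markers were highest in pool 1. In pool 2 were the highest values of 6 of the 7 called members and 6 of the 7 leukocyte markers. The called members include *mhc1zja* and *cd74b*, which passed the filter only through mutant pools. Of the tested immunoproteasome and activator genes, 3, 2 and 1 were highest in mutant pools 1, 2 and 3. For class I trimming and folding these counts were 6, 5 and 0. The share of all tested genes highest in each pool was not computed, so these counts have no background. The part of gut tissue in the change of any member was not tested.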

How the data were processed

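RNA-Seq of 10 dpf heads, in 3 *fbln1* mutant and 3 WT pools, was used as deposited. Per the paper's methods the authors processed the reads with nf-core rnaseq, using the GRCz11 genome and an Ensembl annotation. The deposited values are counts divided by 1 size factor per library (a signal, not raw counts). All values of a library are multiples of what 1 read is worth, and on this scale 100% of them were whole within 0.01, which gave back the reads. A second deposited table holds the authors' own DESeq2 fold changes, p-values and test statistic, and it was not used.

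The planned fit was made with limma version 3.58.1 in R version 4.3.3, on log2(normalized count + 1) with a pseudocount of 1, for genes that reached 10 normalized counts in 3 or more pools, with variances moderated by a trend on the mean. Genotype was the only term, and p-values were adjusted over all 20691 tested genes. On counts simulated for this comparison over 20691 genes, 95% of 200 changed genes and 3 unchanged genes were called. The simulation gave every gene the same dispersion and every changed gene the same size of change, larger than that of most tested members. It therefore checks that the fit runs and gives no error rate for the members. Alternatives covered edgeR version 4.0.16, DESeq2 version 1.42.0 and limma-voom on the recovered reads, TMM and library size scaling, pseudocounts of 0.5 and 5, other filters, no variance trend, a replicate block and leaving out each pool. The chi-square per degree of freedom between pools of the same group was 6.07 to 16.01, above sampling noise.

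Every member that reached 10 normalized counts in a pool was to be named, 22 in all, and of each gene list up to 6 called genes with the largest change. Further members below that level and single markers are named for their counts, a choice made with their values known. The members and lists were chosen with earlier results of these data known. Neighbouring genes come from the GRCz12tu annotation by symbol, with no coordinates. Tables were read with Python version 3.11.15.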

Additional observations from a re-analysis of the deposited data

How the results depend on the processing

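Of the 16 tested members, *cd74b* and *mhc1zba* were called higher in every alternative. The 7 called members became 4 with no variance trend, beside 13.7% of all tested genes called higher in that fit. With 1 pool left out, between 2 and 6 members were called higher, beside 12.1% to 16.4% of all tested genes. The lowest count, *cd74b* and *mhc1zba* alone of the 16, came without mutant pool 2, where the share of all tested genes was 12.1%. Of these 2 genes, *cd74b* passed the filter only through its mutant pools. With no limit on fold change, 1 member (*mhc1zda*) was lower. The members' median log2 fold change lay between 0.48 and 0.79 with 1 pool left out. *mhc1zca*, not called, had log2 fold changes between -0.078 and 0.205, the negative value without mutant pool 2.

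Of all tested genes, 555 were called lower, against 320 with edgeR, 312 with limma-voom and 3116 by adjusted p alone, and between 255 (without WT pool 1) and 1105 (without mutant pool 3) with 1 pool left out. The 6 lists together had 16 genes higher and 1 lower, and between 9 and 18 higher and 0 and 2 lower with 1 pool left out. By adjusted p alone, 6 list genes were lower, of which 3 were class II promoter factors, 1 was of interferon gamma signalling and 1 was interferon-stimulated. Leaving out 1 pool gave between 2 and 5 immunoproteasome genes higher, 3 and 5 genes of class I folding, 0 and 1 promoter factors, 0 and 3 interferon gamma genes and 0 and 1 interferon-stimulated genes, and 0 and 1 lower for both class II processing and interferon gamma. With no variance trend, 0 interferon gamma genes were higher. Of interferon-stimulated genes, 0 were higher with DESeq2, library size scaling, a pseudocount of 0.5 or the filter on the mean, and 2 with no filter. The cause of these shifts was not tested.

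With the replicate block, 7 members were higher, with *tapbp.1* in place of *mhc1zea*, and of all genes 3241 were higher and 581 lower. Deviations of same-numbered pools correlated at 0.04, 0.15 and 0.04, and mutant pool 3 correlated best with WT pool 1 (0.05), so the numbers were not taken to pair the pools. Low reads limit the class II, U and L genes, of which 2 were tested.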

Other observations

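The gene table lists 13 further MHC genes under clone or locus names, which became visible only by their newer symbols and were chosen after the files were seen. Of these, 4 were tested, 2 were called higher (15.4% over all tested genes) and 8 were seen in no pool. The largest difference was that of *mhc2dhb*, a class II beta chain gene listed as zgc:103700, with 22.5, 30.2 and 17.3 normalized counts in mutant pools 1, 2 and 3, against 4.13, 1.88 and 2.13 in WT pools 1, 2 and 3. All mutant pools stood above all WT pools, and the log2 fold change was 2.73 ± 0.48 (SE, limma adjusted p = 0.00203). It passed the filter only through its mutant pools, and it kept its call in every alternative. *mhc2dga*, a class II alpha chain gene listed under a clone name, was below the filter at 11.3, 16.7 and 5.20 normalized counts in the mutant pools against 5.16, 1.88 and 2.13 in the WT pools, with mutant pool 3 just above WT pool 1.

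*mhc1lca*, a class I L gene listed as si:dkey-225f5.5, had 25.6, 15.6 and 27.7 normalized counts in the mutant pools and 11.4, 9.42 and 5.33 in the WT pools (log2 fold change 1.32 ± 0.42, SE, limma adjusted p = 0.0326). Its call was lost without mutant pool 1 (0.104), mutant pool 3 (0.0962), WT pool 2 (0.0505) or WT pool 3 (0.0969). The class II beta chain gene *mhc2d4b*, listed as si:ch73-158p21.3, had 30.7, 35.4 and 32.1 against 11.4, 29.2 and 19.2 (0.78 ± 0.36, SE, limma adjusted p = 0.113). *mhc1haa*, listed as si:dkeyp-13a3.10, had 71.7, 95.8 and 80.6 against 68.1, 103 and 95.0 (-0.09 ± 0.20, SE, limma adjusted p = 0.775), with overlapping pools.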
